A study of Mus musculus with 24 samples.

Results

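The claudins are a family of small proteins with 4 membrane-spanning stretches that polymerise into the strands of the epithelial tight junction. The 10 family members examined were Cldn1, Cldn2, Cldn3, Cldn4, Cldn5, Cldn7, Cldn8, Cldn12, Cldn15 and Cldn23, taken by symbol from a list chosen for their roles in gut epithelium and vessels. All 10 were among the 24346 gene symbols of each table, and all 10 were among the 13799 genes with at least 1 FPKM in at least 4 libraries, the genes that were tested. FPKM is a fragment count divided by transcript length and by the number of fragments mapped in that library. The tables held 22 further Cldn symbols, of which Cldn6 and Cldn14 passed the same filter.

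The study profiled mouse colorectal tissue by RNA-seq in a model of colitis-driven colon cancer, AOM/DSS, in which the mutagen azoxymethane is followed by dextran sulfate sodium in the drinking water. Each of the 24 libraries was annotated as tumor or normal tissue and, by genotype, as c-MAF_KO (KO here) or wild type (WT), and all of them, normal tissue and WT included, came from AOM/DSS treatment. By title the KO libraries fall into KO-1-hetero, into KO-8-hetero and into KO-8-homo, and the WT libraries into WT-young and WT-old. There were 3 tumor libraries in each KO group, 4 in WT-young and 1 in WT-old, and 2 normal libraries in each of the 5 groups. By genotype label this gave 9 KO and 5 WT tumors and 6 KO and 4 WT normal libraries. The labels explain neither the leading numbers 1 and 8 nor the ages behind young and old, and they give no sex, no region of the colon, no type of knockout allele and no animal for any library. Replicates are therefore not known to be separate animals, and p-values measure the spread between these libraries.

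Claudins fall into barrier-forming members, which tighten the paracellular route, and pore-forming members, which let small ions or water through it. The set of claudins in a strand sets which ions cross an epithelium between its cells, and in the gut it changes along the crypt, along the intestine and in inflammation and tumors. Claudins are anchored under the membrane by the scaffold ZO-1, the product of Tjp1, and lie beside occludin, the product of Ocln.

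Between normal and tumor tissue Cldn4 rose and Cldn15 fell, with either genotype label. Cldn4 averaged 16.0 to 16.9 FPKM in normal tissue and 167 to 169 FPKM in tumors by label, and Cldn15 114 to 139 FPKM and 16.6 to 39.9 FPKM. Cldn7 and Cldn3 were the most abundant members in both tissues by their medians. Between genotype labels no claudin was called in either tissue. Within the title groups, Cldn4 was lower in KO-1-hetero than in WT-young tumors, a call that held under 8 of 14 alternative settings and in 1 of 7 fits without 1 tumor.

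Cldn4 and Cldn15, the members that changed, and Cldn3, the neighbour of Cldn4, lie on chromosome 5 in the RefSeq annotation of GRCm38.p6, the assembly of mm10, the build in the submitters' processing notes. Cldn13, Cldn4 and Cldn3 lie within 73227 bases, and 39279 bases separate Cldn4 from Cldn3. Cldn4 spans chr5:134945123-134946934, Cldn3 chr5:134986214-134987476 and Cldn15 chr5:136967869-136975845. The 250 bases before each start are shown because, in tumor against normal tissue by genotype label, Cldn4 rose, Cldn15 fell and Cldn3 was not called. They are written 5′ to 3′ on the strand of the gene, from RefSeq, with motif matches in capitals.
Cldn4, chr5:134946935-134947184, minus strand: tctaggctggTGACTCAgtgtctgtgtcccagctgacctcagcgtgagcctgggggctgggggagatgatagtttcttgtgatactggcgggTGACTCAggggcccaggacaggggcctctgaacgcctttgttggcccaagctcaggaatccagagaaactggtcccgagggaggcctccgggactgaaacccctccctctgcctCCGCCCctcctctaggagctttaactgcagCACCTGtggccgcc
Cldn3, chr5:134985964-134986213, plus strand: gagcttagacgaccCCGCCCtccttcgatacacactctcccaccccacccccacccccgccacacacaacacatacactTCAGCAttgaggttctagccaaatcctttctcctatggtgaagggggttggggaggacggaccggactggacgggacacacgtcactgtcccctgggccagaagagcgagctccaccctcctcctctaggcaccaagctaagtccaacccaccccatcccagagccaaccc
Cldn15, chr5:136967619-136967868, plus strand: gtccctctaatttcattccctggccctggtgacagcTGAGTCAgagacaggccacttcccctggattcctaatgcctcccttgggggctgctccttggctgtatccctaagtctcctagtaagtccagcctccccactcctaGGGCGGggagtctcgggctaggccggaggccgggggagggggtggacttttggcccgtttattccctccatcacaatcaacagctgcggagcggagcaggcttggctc
The capitals mark the motifs searched, each on both strands, and no matches of different motifs overlap in these 3 windows. The letters TGANTCA, bound by AP-1 factors, occur 2 times in the Cldn4 window, 240 and 158 bases before the start, and 1 time in the Cldn15 window, 214 bases before it. Of 32851 RefSeq windows of the same length, 6.749% hold them. A half-site of MAF factors, with the letters TGCTGA, occurs 1 time in the Cldn3 window and in 16.079% of all windows. The E-box of Snail factors, CAGGTG, occurs 1 time in the Cldn4 window and in 17.22% of all windows. Each of the 3 windows holds 1 match of GGGCGG, the GC box of SP and KLF factors, which 32.742% of all windows hold. The core letters of TCF and LEF factors, CTTTGA, are in 13.832% of all windows and in none of these 3. The same is true of the TATA box, TATAAA (12.368%), and of the letters TTTATG of CDX factors (10.764%). These matches describe the letters and were not tested for binding.

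Levels of the members are comparable between genes because FPKM is scaled to transcript length. Cldn7 was the most abundant claudin, at 314 to 912 FPKM in normal tissue and 213 to 555 FPKM in tumors, followed by Cldn3 at 214 to 560.4 FPKM and 159 to 388 FPKM. Both are barrier-forming claudins found along the sides of colonocytes. In normal tissue the next were Cldn15, with a median of 122 FPKM, and Cldn2, with 89.5 FPKM, both pore-forming. Cldn8 had a median of 25.4 FPKM, Cldn12 of 20.9 FPKM, Cldn23 of 19.5 FPKM and Cldn4 of 14.5 FPKM, and the ranges of these 4 overlapped. Cldn5 had a median of 3.45 FPKM and Cldn1 of 0.676 FPKM. In tumors the median of Cldn4 was 186 FPKM, after those of Cldn7 and Cldn3, and its range of 15.2 to 290.5 FPKM overlapped that of Cldn3.

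**Figure D1:**
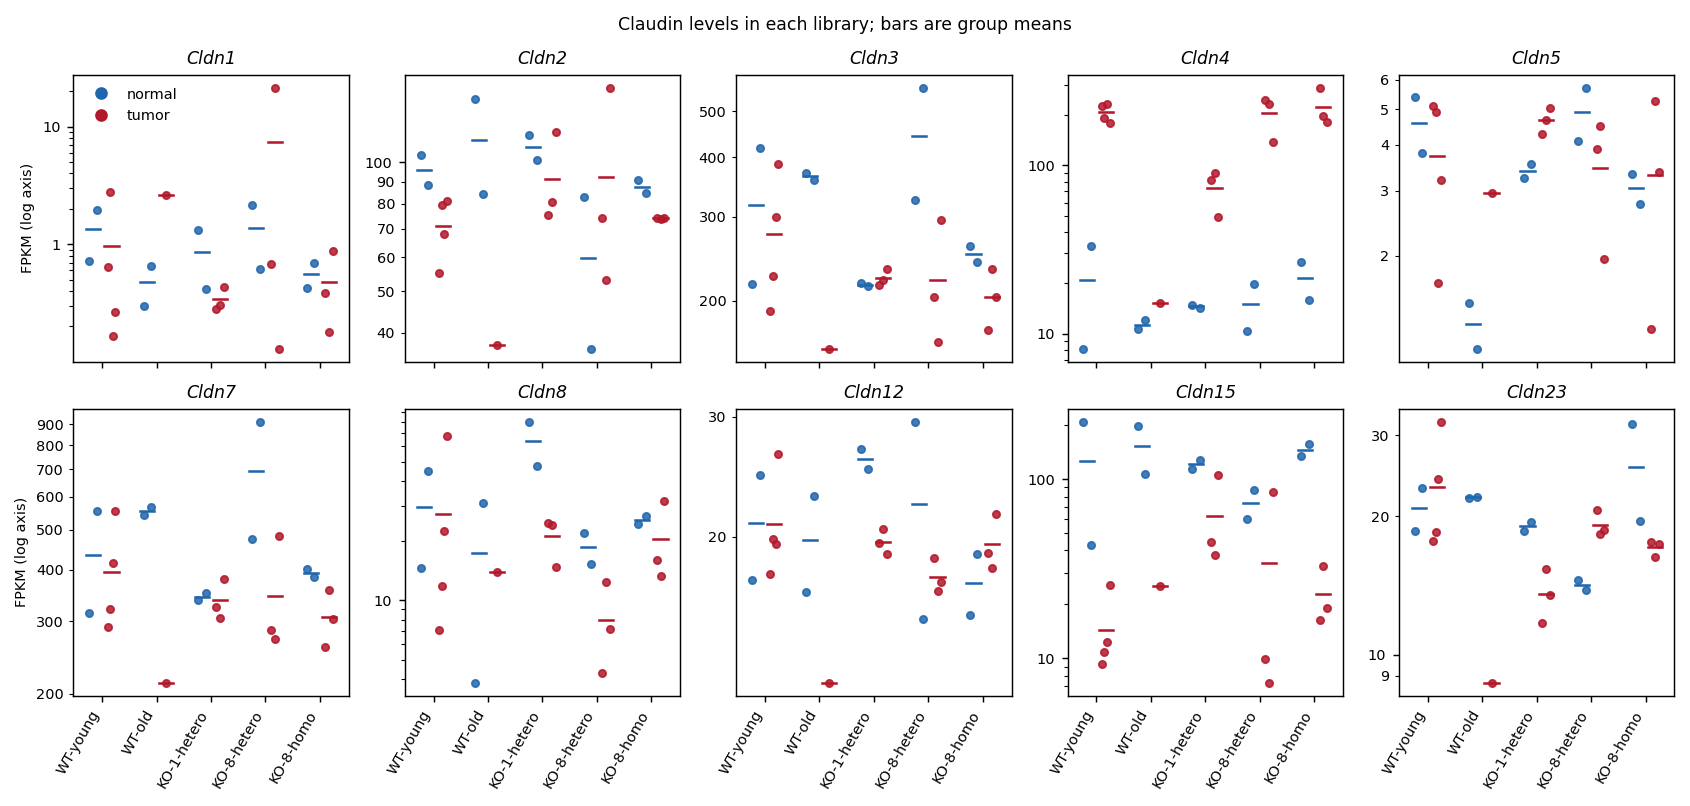
FPKM of each of the 10 claudins (log axes) in every library, by title group, with normal libraries in blue and tumors in red; bars are group means. Normal libraries of Cldn4 lie at 8.14 to 33.4 FPKM, below all tumors except the WT-old one, while Cldn15 tumors lie mostly below the normal libraries and most other panels overlap.

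Cldn4 encodes a barrier-forming claudin that is low in healthy distal colon and high in many carcinomas. In normal tissue it measured 8.14 and 33.4 FPKM in WT-young and 10.6 and 11.96 FPKM in WT-old. The KO-1-hetero libraries gave 14.8 and 14.3 FPKM, those of KO-8-hetero 10.3 and 19.6 FPKM, and those of KO-8-homo 26.8 and 15.7 FPKM. In tumors it measured 227, 190.2, 232 and 179 FPKM in WT-young, and the KO groups gave 81.4, 90.2 and 49.1 FPKM (KO-1-hetero), 246, 232 and 138 FPKM (KO-8-hetero) and 290.5, 197 and 182 FPKM (KO-8-homo). The 1 WT-old tumor measured 15.2 FPKM, inside the range of normal tissue. Every tumor other than that one lay above every normal library, so 9 of 9 KO-labelled tumors and 4 of 5 WT-labelled tumors exceeded all normal libraries of their label. The means were 169 ± 88.9 FPKM (SD, n = 5) in WT-labelled tumors against 16.0 ± 11.7 FPKM (SD, n = 4) in normal tissue, and 167 ± 82.7 FPKM (SD, n = 9) against 16.9 ± 5.67 FPKM (SD, n = 6) with the KO label.

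The log2 fold change of Cldn4 in tumor against normal tissue, on the log2(FPKM + 1) scale used throughout, was 3.07 (SE 0.625, adjusted p 0.00108) with the WT label and 3.09 (SE 0.491, adjusted p 4.04e-05) with the KO label. Adjusted p-values are from limma, adjusted by the Benjamini-Hochberg method over all 13799 genes, and a gene is called below 0.05. Cldn4 was the 1 member of 10 called higher with each label, where 15.5% of all genes tested were called higher with the WT and 24.1% with the KO label. By title group the fold change was 2.22 in KO-1-hetero (limma adjusted p 0.00628), 3.71 in KO-8-hetero (1.97e-05), 3.34 in KO-8-homo (0.000176) and 3.54 in WT-young (4.23e-05). The KO-1-hetero call was lost without KO-1-hetero normal replicate 2 (2.19, limma adjusted p 0.0818).

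The low WT-old tumor was set beside other genes of the same library. The summed FPKM of 20 Wnt target genes, which rise in Wnt-driven colon tumors, was 129 in the WT-old tumor, within the 97.9 to 149.8 of normal tissue, while the other tumors lay between 294 and 1059. The summed FPKM of 10 smooth muscle genes was 2973 in that library against 188 to 1339.97 in the other tumors and 957 to 7312 in normal tissue. Their part in the Cldn4 value was not tested. In bulk tissue, fewer cells of a type and less RNA per cell cannot be told apart, here and for all values that follow.

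Cldn15 encodes a pore-forming claudin that passes sodium and other small cations in the intestine. In normal tissue it measured 209 and 42.9 FPKM in WT-young, 199 and 107 FPKM in WT-old, and the KO groups gave 115 and 129 FPKM (KO-1-hetero), 60.3 and 87.5 FPKM (KO-8-hetero) and 134 and 156 FPKM (KO-8-homo). In tumors it measured 9.30, 10.8, 12.3 and 25.5 FPKM in WT-young and 25.3 FPKM in WT-old. The KO-1-hetero tumors gave 44.4, 37.8 and 106 FPKM, those of KO-8-hetero 9.92, 7.32 and 85.3 FPKM, and those of KO-8-homo 16.3, 32.8 and 19.2 FPKM. With the WT label 5 of 5 tumors lay below all 4 normal libraries, and with the KO label 7 of 9 tumors lay below all 6. The exceptions were replicate 3 of the KO-1-hetero and of the KO-8-hetero tumors.

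The log2 fold change of Cldn15 was -2.87 (SE 0.611, limma adjusted p 0.00153) with the WT label and -1.89 (SE 0.480, adjusted p 0.00294) with the KO label. It was the 1 member of 10 called lower with each label, where 14.8% of all genes were called lower with the WT and 23.2% with the KO label. By title group it fell by 2.74 in WT-young (limma adjusted p 0.0141) and by 2.68 in KO-8-homo (0.0236). The WT-young call was lost without WT-young normal replicate 1 (-1.61, limma adjusted p 0.216), and the KO-8-homo call was lost without any 1 of 4 of its 5 libraries, tumor replicates 1 and 3 and both normal replicates, with adjusted p-values of 0.0572 to 0.132. It was -1.89 in KO-8-hetero (limma adjusted p 0.0630) and -1.10 in KO-1-hetero (0.362), neither called. Without KO-8-hetero tumor replicate 3 the KO-8-hetero value was -2.95 (limma adjusted p 0.0016).

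The 2 tumors with high Cldn15 also stood apart in Xist and in the sum of genes of colon position. They were the 2 tumors with high Xist, the transcript of the inactive X chromosome, at 49.9 and 48.8 FPKM, where each other tumor had at most 0.0621 FPKM. The 4 normal libraries of KO-1-hetero and KO-8-hetero, at 7.38 to 30.3 FPKM, were the other libraries with high Xist, so tissue and Xist level are partly confounded within these 2 groups. The summed FPKM of 13 absorptive colonocyte genes was 3638 and 5005 in the 2 tumors, against 871 to 4379.6 in the other tumors and 7030 to 23713 in normal tissue. The 11 genes of colon position, Insl5 and members of the Hox family, mix distal and proximal markers, so their sum is not a measure of position. They summed to 80.7 and 44.9 FPKM in the 2 tumors, the lowest values of all tumors, which otherwise reached 327 FPKM. The part of these differences in the Cldn15 values was not tested. With log2 Xist as a covariate the Cldn15 value in KO-1-hetero was 0.076.

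**Figure D2:**
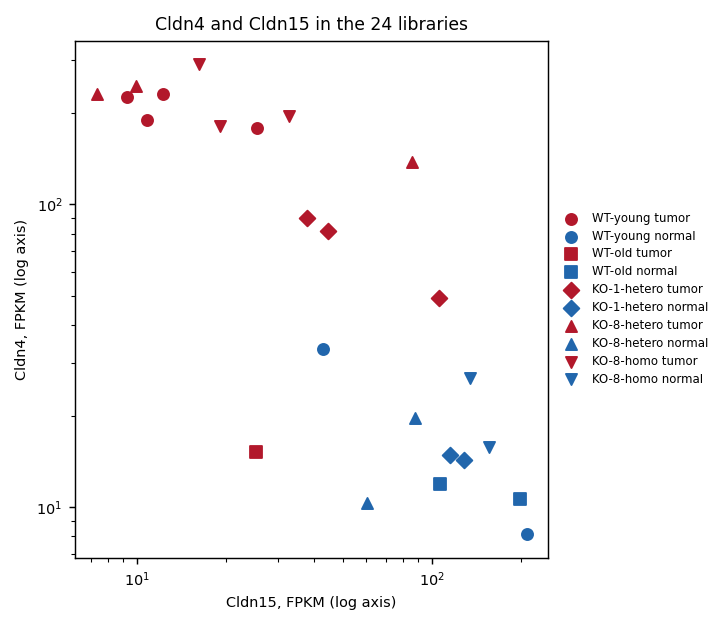
FPKM of Cldn4 against FPKM of Cldn15 (both log axes), 1 point per library, with colours for tissue and shapes for title group. Normal libraries lie at high Cldn15 and low Cldn4, most tumors at low Cldn15 and high Cldn4, and the WT-old tumor, with Cldn4 at 15.2 FPKM and Cldn15 at 25.3 FPKM, lies low on both.

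As a share of the summed FPKM of all claudin symbols, Cldn4 had a median of 1.36% in normal tissue (0.810% to 2.70%) and 20.7% in tumors (3.01% to 33.1%). Cldn15 had 12.8% (3.45% to 22.9%) and 2.04% (0.900% to 11.2%). Cldn7 took 41.0% and 37.3%, Cldn3 27.3% and 24.7%, and Cldn2 9.02% and 8.47%, in that order of tissues. Counting all 32 symbols, the summed claudin FPKM was 504.7 in the WT-old tumor and 811 to 1367 in the other tumors, and 913 to 1687 in normal tissue. The ranges of this total overlapped between tissues, whereas those of the Cldn4 share did not. The lowest tumor share, 3.01%, was that of the WT-old tumor, close to the highest normal share of 2.70%. That tumor had the lowest claudin total, and its Cldn4 level of 15.2 FPKM lay inside the range of normal tissue.

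**Figure D3:**
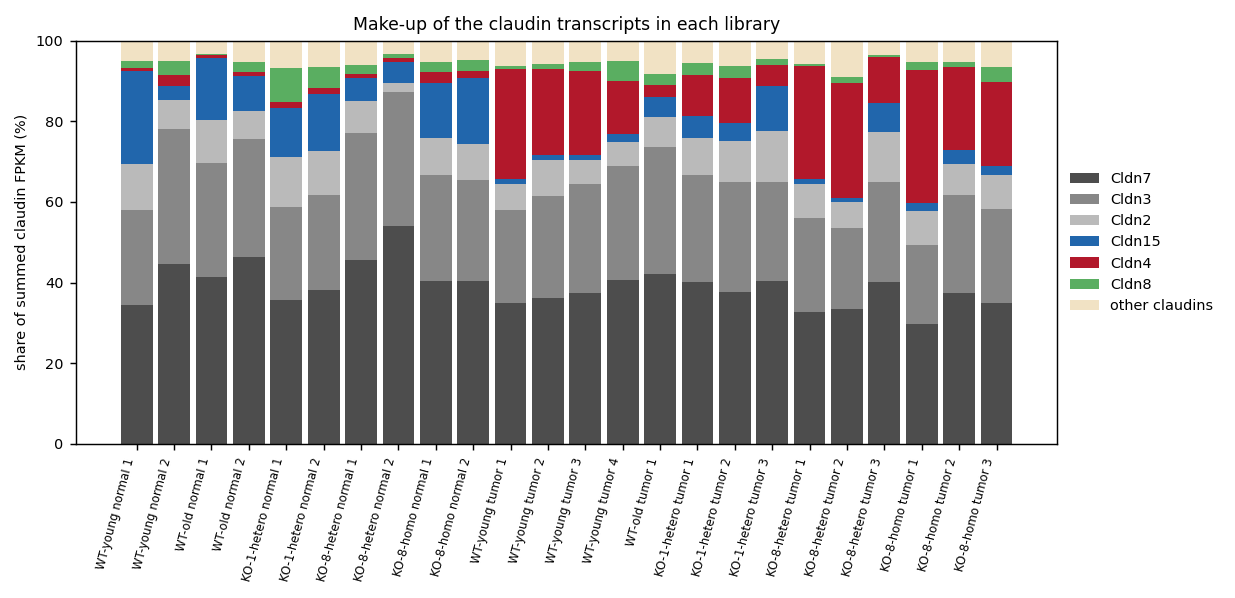
Share of each claudin in the summed FPKM of all claudin symbols (percent), 1 bar per library. Cldn4 takes a median of 20.7% in tumors and 1.36% in normal tissue, and Cldn7 has medians of 37.3% and 41.0%.

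Cldn3 and Cldn7 were not called in tumor against normal tissue by genotype label. With the WT label Cldn3 averaged 253 ± 92.1 FPKM (SD, n = 5) in tumors and 341 ± 87.0 FPKM (SD, n = 4) in normal tissue. Its log2 fold change was -0.47 with a 95% interval of -1.02 to 0.09 (limma adjusted p 0.187). With the KO label the tumors averaged 216 ± 38.4 FPKM (SD, n = 9) against 303 ± 132 FPKM (SD, n = 6), and the change was -0.42 (-0.85 to 0.02, limma adjusted p 0.106). The log2 fold change of Cldn7 was -0.50 (-1.07 to 0.07, limma adjusted p 0.170) with the WT label and -0.46 (-0.91 to -0.01, limma adjusted p 0.0844) with the KO label. The latter passed the threshold without the 2 tumors with high Xist (-0.57, limma adjusted p 0.0406) and without KO-8-hetero tumor replicate 3 alone (-0.53, 0.0479). Relative to the epithelial gene list, all 4 values were above 0, and under that centring the median of all genes rose by 0.67 with the WT and 0.63 with the KO label.

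Cldn3 and Cldn7 varied together from library to library. Pearson r of log2(FPKM + 1) was 0.964 over the 14 tumors and 0.979 over the 10 normal libraries, given as a description of libraries that also share depth and epithelial content. Of all genes tested, Cldn7 was the one most like Cldn3 over the tumors, and Cldn3 the one most like Cldn7. Cldn4, next to Cldn3 on the chromosome, had an r of 0.203 with Cldn3 over the tumors. Cldn13, the other claudin of that cluster, was at most 2.65 FPKM in any library. Cldn3 overlaps the antisense gene Wbscr25 by 40 bases in GENCODE M21, and no other member overlaps an annotated gene.

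Of the 4 title groups tested, Cldn3 and Cldn7 were called lower in tumors in KO-8-hetero. Cldn3 measured 325 and 560.4 FPKM in its normal libraries and 203, 163 and 295 FPKM in its tumors (log2 fold change -0.99, SE 0.313, limma adjusted p 0.0178). Cldn7 measured 474 and 912 FPKM and 285, 272 and 482 FPKM (-0.97, SE 0.318, limma adjusted p 0.0211). Both calls were lost without tumor replicate 2 (limma adjusted p 0.0667 for Cldn3 and 0.0686 for Cldn7), and that of Cldn7 without tumor replicate 1 (0.0645). They were also lost under quantile normalization, at -0.36 and -0.28 (limma adjusted p 0.292 and 0.354), relative to epithelial genes, at -0.41 and -0.39 (0.246 and 0.235), and with these groups fitted alone (0.160 and 0.196). Without normal replicate 2 the calls were lost as well, with Cldn3 at -0.60 (limma adjusted p 0.274) and Cldn7 at -0.50 (0.348). Normal replicate 2 had the highest summed FPKM of all (1016810, against at most 745639), and in it 1766 genes with transcripts below 1500 bases were raised relative to 2796 genes above 5000 bases by 0.80 on the log2 scale, against at most 0.20 in any other library. The longest transcripts of Cldn3 and Cldn7 have 1259 and 1335 bases. The part of transcript length in these 2 calls was not tested. With Cldn4, 3 of 10 members were called in KO-8-hetero, where 43.1% of all genes were called. In KO-1-hetero it was 1 of 10 against 14.1% of all genes, in KO-8-homo 2 of 10 against 23% and in WT-young 2 of 10 against 26.1%. With either genotype label it was 2 of 10, against 30.4% of all genes with the WT and 47.2% with the KO label.

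Cldn2, a pore for sodium and water that is known to rise in inflamed gut, was not called with either label. In WT-labelled tissue its groups did not overlap, with normal libraries at 84.5 to 140.4 FPKM and tumors at 37.4 to 81.1 FPKM. How many of all genes separate in this way was not counted. The log2 fold change was -0.71 (SE 0.296, limma adjusted p 0.0696), and it passed the threshold with log2 Xist as a covariate (0.0465) and without the 2 tumors with high Xist (0.0444). In both of these fits the change was still -0.71. The 2 tumors are KO-labelled, and each WT-labelled library had at most 0.0682 FPKM of Xist. KO-labelled libraries enter this comparison through the shared estimate of the spread. Relative to epithelial genes the Cldn2 change with the WT label was -0.067 (limma adjusted p 0.851). In KO-labelled tissue the groups overlapped, with 36.7 to 116 FPKM in normal tissue and 53.1 to 149 FPKM in tumors. The Cldn2 change there was 0.03 with a 95% interval of -0.45 to 0.51 (limma adjusted p 0.935). Relative to epithelial genes Cldn2 was called higher in KO-labelled tumors (0.63, limma adjusted p 0.0203). Under that centring the median change of all genes was also 0.63 with the KO label, and 0.67 with the WT label. With the KO label 7809 of 13799 genes were then called higher. The uncentred interaction of tissue and label, which tests the difference between the Cldn2 changes with each label, was 0.74 (limma adjusted p 0.986). The 2 highest tumors, at 149 and 118 FPKM, were the 2 with high Xist, and Cldn2 lies on the X chromosome.

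Cldn8 encodes a barrier-forming claudin of the distal colon and kidney tubule that is induced by aldosterone. In normal tissue it measured 14.5 and 45.1 FPKM in WT-young, 3.84 and 31.1 FPKM in WT-old, and the KO groups gave 80.0 and 47.6 FPKM (KO-1-hetero), 21.8 and 15.4 FPKM (KO-8-hetero) and 24.2 and 26.7 FPKM (KO-8-homo). In tumors it ranged from 4.28 FPKM in KO-8-hetero replicate 1 to 67.7 FPKM in WT-young replicate 4, with a median of 14.3 FPKM. It varied more within a tissue than it differed between tissues. The fold change was 0.06 with the WT label (95% interval -1.26 to 1.38, limma adjusted p 0.953) and -1.05 with the KO label (-2.09 to -0.01, limma adjusted p 0.0881). The KO-label value passed the threshold when only the groups compared were fitted (0.0399).

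Cldn12 and Cldn23, members whose pore or barrier role is less settled, had intermediate levels. Cldn12 lay between 12.2 and 29.5 FPKM in all 24 libraries, with log2 fold changes of -0.10 with the WT label (95% interval -0.50 to 0.29, limma adjusted p 0.705) and -0.16 with the KO label (-0.47 to 0.15, limma adjusted p 0.400). Cldn23 lay between 8.70 and 32.1 FPKM, with a log2 fold change of -0.19 with each label (limma adjusted p 0.598 and 0.431). For both, the lowest value of all libraries was that of the WT-old tumor. The 95% intervals of both genes with both labels lay between -0.71 and 0.33.

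Cldn5, the claudin of vessel endothelium, lay between 1.12 and 5.72 FPKM. Its log2 fold change was 0.30 with the WT label (95% interval -0.37 to 0.97, limma adjusted p 0.501) and -0.04 with the KO label (-0.56 to 0.49, limma adjusted p 0.918). Of 14 endothelial genes, 1 was called higher with the WT and 3 with the KO label, and none lower. Of all genes, 15.5% and 24.1% were called higher, in that order of labels. The median change of the 14 genes was 0.03 and 0.39, where that of all genes was 0.02 with each label. The summed FPKM of the 14 genes was 58.6 to 209 in normal tissue and 73.6 to 238 in tumors.

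Cldn1, a barrier-forming claudin essential in the epidermis, was near the lower limit in most libraries. Of the 24 libraries, 1 stood out, KO-8-hetero tumor replicate 2, with 21.5 FPKM. WT-young tumor replicate 2 had 2.79 FPKM and the WT-old tumor 2.62 FPKM, and each other library had at most 2.16 FPKM. The first 2 of these were the tumors with high Krt5, a keratin of the basal layer of squamous epithelium, at 1163 and 250.2 FPKM, where each other library had at most 0.568 FPKM. The 12 squamous genes summed to 11751 and 1321 FPKM in these 2 tumors and to 17.9 to 114 FPKM in the other tumors. Cldn17, which did not pass the filter, was at 5.69 FPKM in KO-8-hetero tumor replicate 2 and at most 0.136 FPKM elsewhere. The part of squamous cells in the Cldn1 values was not tested. The Cldn1 changes were 0.15 and 0.03 with the WT and KO labels (limma adjusted p 0.874 and 0.962), and -0.08 and -0.41 without these 2 tumors (0.872 and 0.167).

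**Figure D4:**
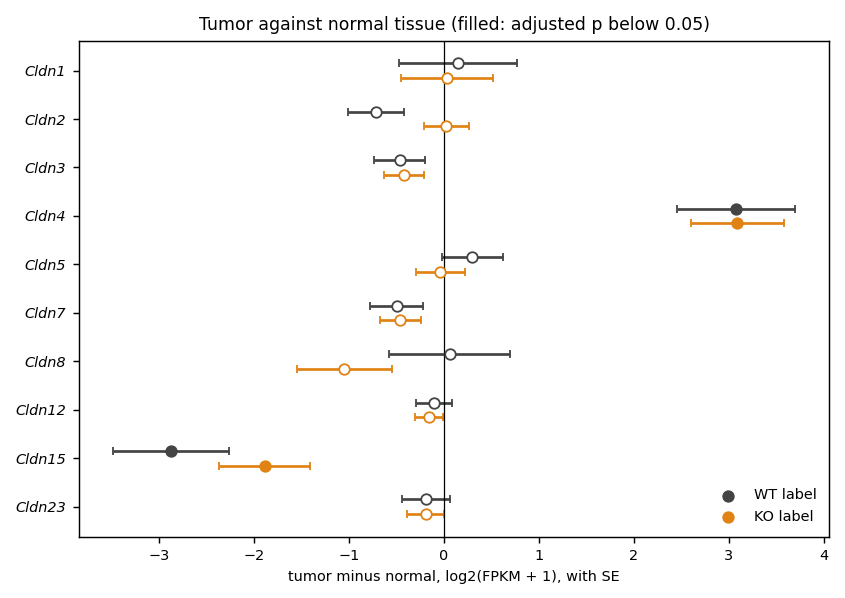
Log2 fold change of each claudin in tumor against normal tissue, on the log2(FPKM + 1) scale, for the WT label and the KO label, with bars for the SE and filled points for an adjusted p below 0.05. Cldn4 lies at 3.07 and 3.09 and Cldn15 at -2.87 and -1.89, and these are the members past the threshold.

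Of the other claudins, Cldn6, an embryonic member, and Cldn14, a barrier-forming member known from the inner ear and kidney, passed the filter. Cldn6 was at most 0.0433 FPKM in normal tissue. In tumors it reached 3.18 FPKM and was listed at 0 in the WT-old tumor. It passed the filter through tumor libraries alone, so a difference between tissues follows from the filter and its values are a description. Cldn14 was called in opposite directions in 2 groups. In KO-8-hetero it measured 10.5 and 17.98 FPKM in normal tissue and 3.35, 2.96 and 1.46 FPKM in tumors (-2.09, SE 0.659, limma adjusted p 0.0177). In KO-8-homo it measured 0.759 and 1.11 FPKM in normal tissue and 6.03, 6.17 and 8.69 FPKM in tumors (2.03, SE 0.659, limma adjusted p 0.0351).

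The opposite directions of Cldn14 came with a wide spread of normal tissue. The normal libraries with low Cldn14 were both of KO-8-homo, WT-old replicate 1 at 0.866 FPKM and WT-young replicate 1 at 2.198 FPKM, and the other 6 had 7.19 to 17.98 FPKM. The same 4 libraries had the lowest sums of the 11 distal and proximal genes of colon position, 67.7 to 139 FPKM. The other 6 had 497 to 1300 FPKM. As stated above, this sum is not a measure of position. The 4 libraries also had the 4 highest Cldn15 values, 134 to 209 FPKM against 42.9 to 129 FPKM. The labels do not say where in the colon each piece was taken, and the part of position in these values was not tested.

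The comparison in the series title, KO with WT, called no member in either tissue. In tumors 0 of 10 members were called, where 1 gene of 13799, or 0.00725%, was called. At an unadjusted limma p below 0.05 it was also 0 of 10, against 1147 of 13799 genes. The value of Cldn15 was 0.87 (95% interval -0.18 to 1.92, limma adjusted p 0.670), that of Cldn2 0.40 (limma adjusted p 0.684), that of Cldn8 -0.31 (0.914) and that of Cldn4 0.24 (0.931). The Cldn4 value was -0.49 without the WT-old tumor. In normal tissue 0 of 10 were called by limma, where 0% of all genes were called. At an unadjusted limma p below 0.05 it was 0 of 10, against 645 of 13799 genes. Cldn8 was at 0.80 and Cldn5 at 0.40, each with a limma adjusted p of 1. The interaction of tissue and label gave 0 of 10 by limma, again with 0% of all genes called, with Cldn8 at -1.11 and Cldn15 at 0.98. At an unadjusted limma p below 0.05 the interaction gave 0 of 10, against 654 of 13799 genes.

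Maf, the gene the genotype label names, was called lower with the KO label in no comparison. In tumors it lay between 2.62 and 7.40 FPKM in the 9 KO-labelled libraries and between 1.63 and 2.26 FPKM in WT-young, and was 7.26 FPKM in WT-old. It was called higher in KO-1-hetero than in WT-young tumors (1.12, limma adjusted p 0.0172), and in KO against WT tumors it was at 0.58 (0.555). In normal tissue it lay between 1.52 and 6.27 FPKM with the KO label and between 1.37 and 2.82 FPKM with the WT label. Libraries labelled KO are therefore described by their label, and no direction is drawn from a lower Maf transcript. Whether the FPKM counts a transcript of an altered allele was not tested.

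The 3 KO groups were each set against the 4 WT-young tumors, which the 3 comparisons share. Zygosity and the leading number of the title were thus each set against the same tumors. In KO-1-hetero 2 of 10 members were called, both lower, where 2.88% of all genes were called. Cldn4 changed by -1.52 (SE 0.362, limma adjusted p 0.0356), with all 3 KO-1-hetero tumors (49.1 to 90.2 FPKM) below all 4 WT-young tumors (179 to 232 FPKM). Cldn23, an intestinal member of the family, changed by -0.70 (SE 0.178, limma adjusted p 0.0451), with 11.7 to 15.4 FPKM against 17.7 to 32.1 FPKM. The value of Cldn15 was 1.99 and was not called (limma adjusted p 0.110), but was called when only the groups compared were fitted (0.0411).

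Over the 14 alternative settings the Cldn4 call was kept in 8 and the Cldn23 call in 5. The limma adjusted p of Cldn4 ranged there from 0.0154 to 0.263 and that of Cldn23 from 0.0383 to 0.678, with fold changes of -1.58 to -1.23 and -0.79 to -0.53. Leaving out 1 library at a time kept the Cldn4 call in 1 of 7 fits, the one without KO-1-hetero tumor replicate 2, and the Cldn23 call in 1 of 7, the one without WT-young tumor replicate 1. Without any other of the 7 tumors the adjusted p was 0.0634 to 0.166 for Cldn4 and 0.0516 to 0.210 for Cldn23. Of 10 leukocyte genes 4 were called higher in these tumors, with a median change of 1.02. In the same comparison 2.88% of all genes were called, in either direction. Of 10 smooth muscle genes 3 were called higher, with a median of 1.82, and of 14 epithelial genes 1 was called lower, with a median of -0.29. Their part in the Cldn4 and Cldn23 values was not tested.

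In KO-8-hetero against WT-young tumors 0 of 10 members were called by limma, where 0.00725% of all genes were called, with Cldn4 at -0.05 and Cldn15 at 0.47. At an unadjusted limma p below 0.05 it was 0 of 10, against 961 of 13799 genes. In KO-8-homo it was also 0 of 10 called, against 0.457% of all genes, with Cldn4 at 0.08 and Cldn15 at 0.66. At an unadjusted limma p below 0.05 it was 0 of 10 there, against 1399 of 13799 genes. Tumors of KO-1-hetero and of KO-8-hetero, compared directly after their values had been seen, gave 0 of 10 members by limma, where 0% of all genes were called. At an unadjusted limma p below 0.05 there were 3 of 10 members, against 1363 of 13799 genes. Cldn4 stood at -1.47 (SE 0.387, limma adjusted p 0.215) and Cldn15 at 1.53 (limma adjusted p 0.487). Without KO-8-hetero tumor replicate 3, Cldn15 was called higher (2.59, limma adjusted p 0.0387). A lower Cldn4 in KO-1-hetero than in KO-8-hetero was therefore not shown by this test.

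Of 28 listed partners of claudins at the tight junction, 25 were tested, and 4 were called lower and 0 higher with the WT label, and 3 lower and 3 higher with the KO label. Of all genes, 14.8% were called lower and 15.5% higher with the WT label, and 23.2% and 24.1% with the KO label. Ocln was at -0.29 and -0.31 with the WT and KO labels (limma adjusted p 0.468 and 0.280). Tjp1 was at 0.02 (0.958) and was called higher with the KO label (0.49, limma adjusted p 0.0379). Ildr1, an angulin of junctions where 3 cells meet, was at -1.47 and -1.03 (limma adjusted p 0.00141 and 0.00169), and Ybx3, a transcription factor bound by ZO-1, was at -0.89 and -0.56 (0.000678 and 0.00174). The list median was -0.26 and -0.06, against 0.02 for all genes with each label.

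Among genes that act on claudins, Cdx1, Cdx2, Hnf4a, Prss8, Wnk4 and Spint2 fell and Snai2 rose with both labels. Of 20 listed regulators 19 were tested, and 6 were called lower and 1 higher with the WT label, and 8 lower and 4 higher with the KO label. The shares of all genes were 14.8% lower and 15.5% higher (WT), and 23.2% and 24.1% (KO). Cdx2 and Cdx1, transcription factors of intestinal identity, had changes of -3.04 and -1.82 with the WT label and of -1.43 and -1.74 with the KO label. Hnf4a, a transcription factor of the gut epithelium, was at -1.15 and -0.95, and the membrane protease Prss8 at -1.26 and -1.29. Wnk4, a kinase that acts on paracellular chloride flow, was at -1.03 and -0.53, and the protease inhibitor Spint2 at -0.93 and -0.76. Each of these 6 was called with both labels, with limma adjusted p-values from 1.69e-06 to 0.0218. Epcam, whose product binds Cldn7, was at -0.22 and -0.23 (limma adjusted p 0.428 and 0.248).

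Genes of ion and water transport, most of them of the transcellular route, were called lower in most cases. Of 16 tested, 9 (WT label) and 10 (KO label) were called lower, and 0 were called higher with either. Of all genes, 14.8% were called lower with the WT and 23.2% with the KO label. Car4, a carbonic anhydrase, was at -3.33 and -4.55 with the WT and KO labels, and the water channel Aqp8 at -2.77 and -4.18. The chloride exchanger Slc26a3 was at -2.21 and -3.91, the water channel Aqp4 at -1.96 and -1.76, the monocarboxylate carrier Slc5a8 at -1.82 and -2.47 and the sodium-proton exchanger Slc9a2 at -1.74 and -1.86. All 6 were called with both labels, with limma adjusted p-values of 2.38e-05 to 0.0461. The list median was -1.42 and -1.13.

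Marker lists of the tissue moved between tumor and normal libraries as well. Of 14 epithelial genes, 4 were called lower with the WT and 6 with the KO label, with medians of -0.38 and -0.47, and their summed FPKM was 10435 to 21988 in normal tissue and 6103 to 16622 in tumors. None of the 14 was at 0 in any library. Absorptive colonocyte genes, among them Car4, Aqp8 and Slc26a3 of the transport list, were called lower in 8 of 13 with each label. Goblet cell genes were called lower in 5 and 7 of 10, and smooth muscle genes in 10 of 10 with each. Leukocyte genes were called higher in 4 of 10 with each label and fibroblast genes in 1 and 6 of 10, with 1 fibroblast gene lower with the KO label. Shares of all genes were 14.8% lower and 15.5% higher with the WT label, and 23.2% and 24.1% with the KO label. Relative to the epithelial list, Cldn4 was at 3.72 and 3.70 and Cldn15 at -2.22 and -1.28, each still called. Under that centring the median of all genes rose by 0.67 with the WT and 0.63 with the KO label. The epithelial list includes Cdx2, itself called lower, and Krt20, which is also in the absorptive colonocyte list, so it does not measure epithelial content alone.

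The genes whose level was most like that of Cldn4 over the 14 tumors were Sh3bp4 (Pearson r 0.980), Entpd3 (0.971) and Vill (0.970). Over the 10 normal libraries the same genes had r of 0.400, -0.494 and 0.303 with Cldn4. Those most like Cldn15 were Selm (0.961), Igdcc4 (0.959) and Hsd3b3 (0.953), and over normal libraries their r was 0.395, 0.662 and 0.917. These are the highest of 13799 genes and are given as a description.

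Relative depth, estimated from the smallest FPKM steps, was 0.689 to 1.87 of the median library, and 12074 to 13290 genes had at least 1 FPKM. Total fragments are not in FPKM tables, so no counting interval can be given, and values under about 1 FPKM, such as most of those of Cldn1 and Cldn6, are the least precise.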

How the data were processed

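Per the labels' protocols, total RNA (miRNeasy kit) went into stranded TruSeq mRNA libraries. The submitters' processing notes name TopHat2 2.1.1, Bowtie2 2.2.8, SAMtools 0.1.18, Cuffdiff 2.2.1 and the build mm10. Their roles, the annotation, the filters and the strand setting are not given in the sources used here. Each deposited file holds FPKM values by gene symbol for 1 library, per the file headers, and 0 columns of other samples were present.

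Values were used as log2(FPKM + 1), which understates the changes of low genes, without further scaling. Genes with at least 1 FPKM in at least 4 libraries were tested with limma 3.58.1 in R 4.3.3 (eBayes with trend, two-sided, Benjamini-Hochberg adjustment, threshold 0.05). A model of genotype label by tissue gave the comparisons by label, and a model of the 10 title groups the others. All 24 libraries entered each fit. The fits were tested on simulated data with independent noise in each gene and library. Those data hold no differences in cell content, colon position or Xist, so they do not cover the spread of these libraries. FPKM values are not counts, and no count model was used.

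The members and gene lists were chosen with earlier results of these data known. Genes named are the members, other claudins that passed the filter, Maf, Ocln, Tjp1 and Epcam. From the junction, regulator and transport lists came up to 6 genes called with both labels, by size with the WT label, and for Cldn4 and Cldn15 the 3 genes most alike over tumors. Cldn13, Cldn17 and the markers Xist, Krt5 and Snai2 were named after their values were seen. Promoter letters came from RefSeq (GRCm38.p6), with entries for 8 of 10 members, and overlaps from GENCODE M21. Alternatives were other pseudocounts, filters, scalings, covariates, a replicate block, smaller fits and fits without single libraries.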

Additional observations from a re-analysis of the deposited data

Results flagged for a closer look

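Dixon's criterion was applied to log2(FPKM + 1) in 50 tests, each of 1 claudin in a group of 4 to 9 libraries. In 5 of them the highest or lowest value stood far from the rest, which chance meets in about 1 of 20 tests. The groups overlap, since the WT-young tumors are also among the WT-labelled tumors. Cldn1 was 21.5 FPKM in KO-8-hetero tumor replicate 2, and the next of the 9 KO-labelled tumors had 0.878 FPKM. Cldn2 was 36.7 FPKM in KO-8-hetero normal replicate 2, and the next of the 6 KO-labelled normal libraries had 82.8 FPKM. In the same library Cldn7 was 912 FPKM, and the next had 474 FPKM. Cldn7 was 314 FPKM in WT-young normal replicate 1, and the next of the 4 WT-labelled normal libraries had 544 FPKM. Cldn4 was 15.2 FPKM in the WT-old tumor, and the next of the 5 WT-labelled tumors had 179 FPKM.

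The Cldn23 values lay in different directions between title groups. Each of the 3 KO-8-hetero tumors lay above both normal libraries of that group (log2 change 0.41), while in KO-1-hetero and KO-8-homo each tumor lay below both normal libraries (-0.47 and -0.52). None of these changes was called (limma adjusted p 0.130, 0.142 and 0.0860), and the difference between the groups was not tested.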

How the results depend on the processing

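Values are log2 changes. The Cldn4 and Cldn15 calls in tumor against normal tissue by genotype label held under all 14 alternatives and in all fits without 1 library, with Cldn4 at 2.53 to 3.81 (WT) and 2.83 to 3.70 (KO) and Cldn15 at -3.35 to -2.22 and -2.37 to -1.28. Centring on epithelial genes, under which 95.4% of called genes were higher with the WT label (51.1% without it) and 93.8% with the KO label (50.9%), turned Cldn3 (0.18 and 0.19), Cldn7 (0.15 and 0.15), Cldn12 (0.54 and 0.45) and Cldn23 (0.46 and 0.41) with the WT and KO labels, Cldn5 with the KO label (0.57), and Cldn4 in KO-8-hetero against WT-young tumors (0.0070). Upper quartile scaling, with 60.6% of called genes higher with the KO label, turned Cldn5 (0.044), and quantile normalization turned Cldn1 (-0.15), Cldn3 (0.044) and Cldn7 (0.035) with that label. A pseudocount of 0.1 or 0.5 turned Cldn1 with the KO label (-0.33 and -0.073). Without the WT-old libraries, with the WT label Cldn1 was -0.38, Cldn5 -0.30, Cldn8 -0.40 and Cldn23 0.11, and between KO and WT labels Cldn4 in tumors was -0.49 and Cldn5 in normal tissue -0.23. The log2 Xist covariate turned Cldn1 with the KO label (-0.053), Cldn15 in KO-1-hetero (0.076), and Cldn4 (0.23) and Cldn15 (-0.27) in KO-8-hetero against WT-young tumors. Without the 2 tumors with high Krt5, Cldn1 was -0.080 (WT) and -0.41 (KO). Without the 2 tumors with high Xist, Cldn2 with the KO label was -0.17, and in KO-8-hetero against WT-young tumors Cldn4 was 0.21 and Cldn15 -0.59. These 2 settings were chosen after seeing the data. The cause of these turns was not tested.

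Members called in KO-1-hetero against WT-young tumors numbered 1 with no filter on low values, upper quartile scaling, quantile normalization or no WT-old libraries, and 0 relative to epithelial content, with the Xist covariate, or without the tumors with high Krt5 or high Xist. In tumor against normal tissue fitted on those groups alone they numbered 2 (KO-1-hetero) and 1 (KO-8-hetero), and 1 in KO-8-hetero without the tumors with high Krt5. Fits without 1 library gave 0 to 1 in KO-1-hetero against WT-young, 0 to 1 in KO-1-hetero, 1 to 4 in KO-8-hetero, 1 to 2 in KO-8-homo and 1 to 2 in WT-young. In these fits with the WT label, values reached -0.080 to 0.38 for Cldn1, -0.58 to 0.50 for Cldn8, -0.23 to 0.037 for Cldn12 and -0.37 to 0.069 for Cldn23. With the KO label they reached -0.41 to 0.19 for Cldn1, -0.20 to 0.13 for Cldn2 and -0.10 to 0.091 for Cldn5. Cldn4 reached -0.49 to 0.47 for KO against WT tumors, -0.20 to 0.21 for KO-8-hetero and -0.12 to 0.21 for KO-8-homo against WT-young, and Cldn15 -0.59 to 1.09 for KO-8-hetero against WT-young.

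Correlations of same-numbered deviations from group means were -0.159 to 0.355 over 8 pairs. With 2 normal libraries per group the 2 normal deviations mirror each other, so these correlations cannot decide whether replicate numbers pair libraries. In KO-1-hetero and KO-8-hetero, tumor replicates 1 and 2 had at most 0.0621 FPKM of Xist, and normal replicates 1 and 2 had 7.38 to 30.3 FPKM. Same-numbered tumor and normal libraries of these 2 groups thus differed in Xist and are not read as pairs from 1 animal. A replicate block joins them all the same. With a replicate block, 0 members were called in KO-1-hetero against WT-young tumors. There the Cldn4 value (-1.58) was that of the fit without WT-young tumor replicate 4, which has no same-numbered partner. In tumor against normal tissue that block gives no weight to libraries without a same-numbered partner, such as tumor replicate 3 of each KO group. Under it Cldn2 (-0.98) with the WT label, Cldn8 (-1.09) with the KO label and Cldn15 (-2.95) in KO-8-hetero passed the threshold. The Cldn15 value is that of the fit without KO-8-hetero tumor replicate 3. Cldn8 (-0.39) with the WT label and Cldn2 (-0.18) and Cldn5 (0.013) with the KO label turned. The FPKM tables give no fragment counts, so depth limits the low members, Cldn1 and Cldn5, most.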
